A study of Drosophila melanogaster with 3 samples.

Results

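The respiratory chain and ATP synthase genes are the nuclear genes whose protein products build the energy-converting machinery of the mitochondrial inner membrane. They were chosen by symbol, as every nuclear protein-coding gene of the Ensembl fly annotation whose name begins with ND-, Sdh, UQCR, COX and a digit, or ATPsyn, and they numbered 88 of 13968 genes. By the same names, 40 belonged to complex I, 8 to complex II, 9 to complex III, 16 to complex IV and 15 to ATP synthase (complex V). A further split by symbol gave 63 genes called core here, accessory subunits included, 24 paralogs whose symbol ends in L or in L and a digit (called like paralogs here), and 1 assembly factor, Sdhaf3. For each gene, a summit (the base of highest signal in a peak) within 500 bp of any of its transcription start sites (TSS) was counted, and a gene with such a summit was called bound in that list.

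Complex I takes electrons from NADH and complex II takes them from succinate. Both pass them through ubiquinone to complex III, cytochrome c and complex IV, which reduces oxygen, and the proton gradient built on the way drives ATP synthase. Most subunits are encoded in the nucleus and the rest in mitochondrial DNA, so that the nuclear genes of a complex are usually described as a coordinately expressed set. In Drosophila, many genes of the chain have a second copy expressed mainly in the testis, and many nuclear genes of mitochondrial proteins have been described to carry a short palindromic sequence, the nuclear respiratory gene (NRG) element.

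The libraries came from whole prepupae of both sexes, aged 24 h, of 1 transgenic Drosophila melanogaster line that stably expresses Coop (CG1621) with a green fluorescent protein at its C-terminal end. Coop has been described as a corepressor partner of Pangolin, a transcription factor of the Wingless pathway. All 3 biological replicates carried the same transgene and formed 1 group, and no untagged or otherwise treated group was analysed here. A free-text line of each library calls it an input control, while its assay title, antibody and deposited notes describe chromatin immunoprecipitation with a separate control. It was read as the latter, and every value below depends on this. Because whole animals were used, occupancy in few cells and weak occupancy in many cells cannot be told apart.

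The lists were 1 thresholded list of 6626 peaks from all replicates, 1 pooled list of 30000 relaxed regions, and 1 relaxed list of 30000 regions per replicate. Replicates were compared mainly in the 6626 regions of highest signal in each list, called its top. The deposited signal of a peak is a caller score whose scale is not the same in every list, so a summit is described by its rank within a list, where rank 1 is the highest signal. Read depth is unknown, and the intervals given cover counting of genes only. All replicate lists were derived against 1 shared control alignment, and replicate 3 had the fewest genes with a summit.

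The 4 summits described first were found in the top of all 3 replicates, with a summit within 100 bp of the thresholded one. Their sequences are shown because they mark where the signal at these genes was best repeated. They come from the RefSeq genome, release 6 (dm6), on the strand of the gene, with 11 bases centred on the summit in capitals. For UQCR-C2, whose summit lies in the first exon, 30 bases are shown.
COX7AL2 (chr2L:2193373-2193573, minus strand): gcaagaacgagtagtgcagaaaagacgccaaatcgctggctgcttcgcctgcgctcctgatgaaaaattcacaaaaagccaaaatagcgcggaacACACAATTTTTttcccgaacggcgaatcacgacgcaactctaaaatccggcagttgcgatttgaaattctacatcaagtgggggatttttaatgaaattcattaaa
ND-ASHI (chrX:6679251-6679451, minus strand): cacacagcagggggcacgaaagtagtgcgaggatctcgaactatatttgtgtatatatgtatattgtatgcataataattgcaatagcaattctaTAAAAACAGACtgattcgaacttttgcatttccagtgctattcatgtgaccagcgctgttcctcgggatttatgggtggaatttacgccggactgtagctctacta
UQCR-C2 (chr3L:16584283-16584312, plus strand): ttgaaccccgTGCGACGGCCAcactagcgc
ND-51 (chr2L:6062744-6062944, minus strand): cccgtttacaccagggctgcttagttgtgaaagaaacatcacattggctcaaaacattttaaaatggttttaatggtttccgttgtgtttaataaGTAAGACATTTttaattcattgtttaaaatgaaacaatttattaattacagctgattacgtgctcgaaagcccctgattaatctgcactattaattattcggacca

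The highest signal at any of the 88 genes was at COX7AL2 (FBgn0085201), a like paralog of the complex IV subunit gene COX7A, on the minus strand of arm 2L. Its thresholded summit had a signal of 5534 and rank 3 of 6626. The matching summit ranked 3 in replicate 1 with a signal of 1867, 5 in replicate 2 with 1817 and 3 in replicate 3 with 2072. The rank was thus among the highest in every replicate. The summit lay at position 2193473, in the 4460 bp first intron (2192849 to 2197308) of the longest transcript, and 463 bp upstream of the nearest start of the shorter ones. It was the farthest from a start site among the 17. In replicate 1 the summit lay 508 bp away, just outside the window. The call of COX7AL2 in that replicate thus rested on a different summit of rank 15144, 41 bp downstream of the start of the longest transcript. A weaker thresholded peak with a signal of 171 and rank 6594 had its summit on the other side, 527 bp from a start site of the gene.

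The second summit lay at ND-ASHI (FBgn0029888), the gene of an accessory subunit in the membrane arm of complex I. Its thresholded signal was 1480, rank 160. The ranks of 221 in replicate 1, 207 in replicate 2 and 136 in replicate 3 went with signals of 361, 595 and 488, and all stood well within the top. The same summit lay 233 bp upstream of the most upstream start site of ND-ASHI and 289 bp upstream of a start site of Fum1, the gene of the citric acid cycle enzyme fumarase, which is transcribed in the opposite direction. It fell in the 1209 bp first intron (6678617 to 6679825) of the longer Fum1 transcript, and the longest transcripts of both genes overlap in their first exons. A weaker region at -1029 bp along the arm, whose summit was 62 bp from another start site of ND-ASHI, ranked 11125 in the pooled list, 10658 in replicate 1 and 11944 in replicate 2, and replicate 3 listed none there.

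**Figure D1:**
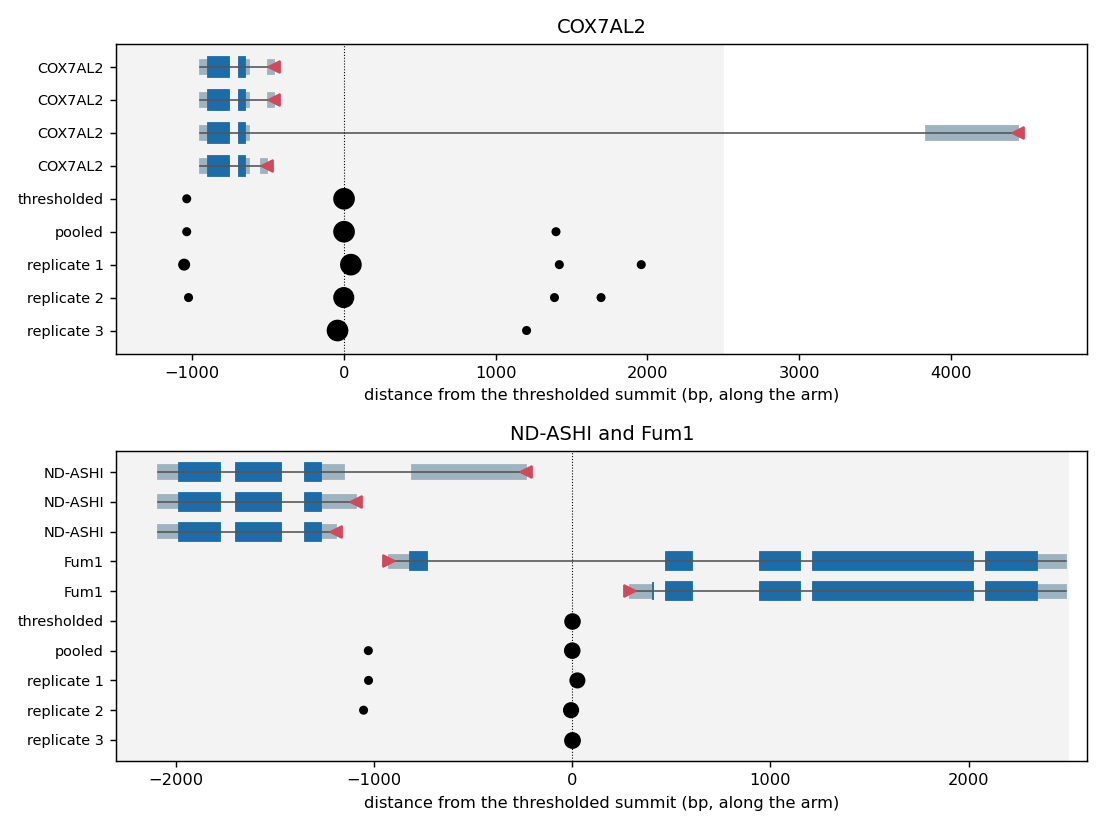
Gene models and summits at COX7AL2 (upper panel) and at ND-ASHI with Fum1 (lower panel), by distance in bp from the thresholded summit. Light boxes are exons, dark boxes coding sequence and red arrowheads the start and direction of each transcript. Black points are summits of each list within 2500 bp (shaded), larger for a higher rank in the top 6626. The point at 0 recurs in all 5 lists in both panels, within 45 bp at COX7AL2 and 26 bp at ND-ASHI.

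UQCR-C2 (FBgn0250814) encodes a core protein of complex III. Its summit lay in the first exon, 25 bp downstream of a start site, with a signal of 499 and rank 1435. In replicates 1, 2 and 3 the summit ranked 957, 1852 and 1427, with signals of 169, 185 and 164. No other gene had a start site within 500 bp of it. ND-51 (FBgn0031771) encodes the flavoprotein of complex I that binds NADH. Its summit lay 87 bp upstream of its start and 145 bp upstream of that of CG13994, with a signal of 349 and rank 2486. It ranked 3536, 2022 and 4752 in replicates 1, 2 and 3, where its signals were 83.0, 175 and 74.4. The ranks of UQCR-C2 lay closer together than those of ND-51, and both genes stayed in the top of every replicate.

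In the thresholded list, 17 of 88 genes were bound (19.3%, exact 95% binomial interval 11.7 to 29.1%), beside 21.1% of all genes. Split by symbol, 16 of 63 core genes (25.4%, 15.3 to 37.9%) and 1 of 24 like paralogs (4.17%, 0.105 to 21.1%) were bound. In the pooled list the counts were 33 of 88 genes (37.5%), 31 of 63 core genes (49.2%) and 2 of 24 like paralogs (8.33%), beside 41.3% of all genes. The share of the whole set was thus near that of all genes in both lists, and the core genes and the like paralogs lay on opposite sides of it. By arm, the bound genes were 4 of 16 on 2L, 3 of 17 on 2R, 3 of 20 on 3L, 4 of 20 on 3R and 3 of 13 on X. Neither of the 2 on chromosome 4, ATPsynbeta and ND-49, was bound. Shares of all genes were not counted by arm, so the counts by arm only describe these genes.

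The replicates differed in how many of the genes they called. In the top regions, 24 genes were bound in replicate 1 (27.3%), 13 in replicate 2 (14.8%) and 10 in replicate 3 (11.4%). The mean share was 17.8% ± 8.38 (SD, n = 3), beside 25.9%, 21.3% and 18.1% of all genes (21.8% ± 3.93, n = 3). For the core genes it was 38.1%, 19.0% and 14.3%, so they stood above all genes in replicate 1 only. Their mean was 23.8% ± 12.6 (SD, n = 3). This SD is the spread of the core share over replicates and does not measure the gap to all genes. With all 30000 regions, the core genes reached 82.5%, 65.1% and 30.2%, beside 51.5%, 46.1% and 36.5% of all genes. They were above all genes in replicates 1 and 2 and below in replicate 3. The like paralogs were at 8.33%, 8.33% and 12.5%, below all genes in every replicate.

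**Figure D2:**
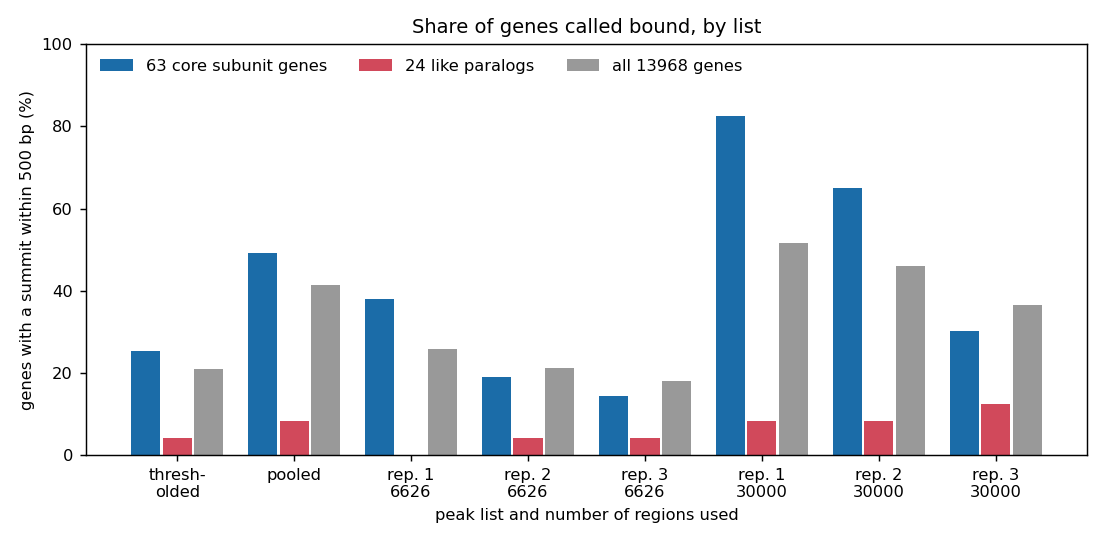
Share of genes with a summit within 500 bp of a start site (percent, vertical axis), by peak list, for 63 core genes (blue), 24 like paralogs (red) and all 13968 genes (grey). Each bar is 1 list and has no error bar. Core genes lie above all genes in the thresholded and pooled lists, in replicate 1 and in all regions of replicate 2, and below them in the other lists, while the like paralogs stay at 12.5% or less.

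Core genes with a summit in a relaxed list had their best one further down it, by the median, than all genes so called. The median best rank of the 52 core genes called in replicate 1 was 8186, beside 6569 over the 7199 genes called there. In replicate 2 it was 9360 over 41 core genes, beside 7367, and in replicate 3 it was 8162 over 19, beside 6687. Of the core genes called, 46.2%, 29.3% and 47.4% were in the top of replicates 1, 2 and 3, beside 50.3%, 46.2% and 49.7% of all called genes. The gap was widest in replicate 2.

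Only 4 genes had a summit in the top of all 3 replicates by the 500 bp rule (4.55%, beside 12.7% of all genes). They were ND-51, ND-ASHI, ND-MWFE and UQCR-C2. A further 11 were in the top of 2 replicates (12.5%, beside 8.19% of all genes), and 60 were in no top (68.2%, beside 68.2%). Another 13 were in the top of 1 replicate (14.8%, above the share of all genes). Of those 13, 11 were in replicate 1, 2 in replicate 2 and 0 in replicate 3. Among the 1532 genes in the top of 1 replicate in the whole annotation, 61.2% were in replicate 1. No list held a summit for 32 genes (36.4%, beside 40.0% of all genes), and all 5 lists held one for 12 (13.6%, beside 18.0%).

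**Figure D3:**
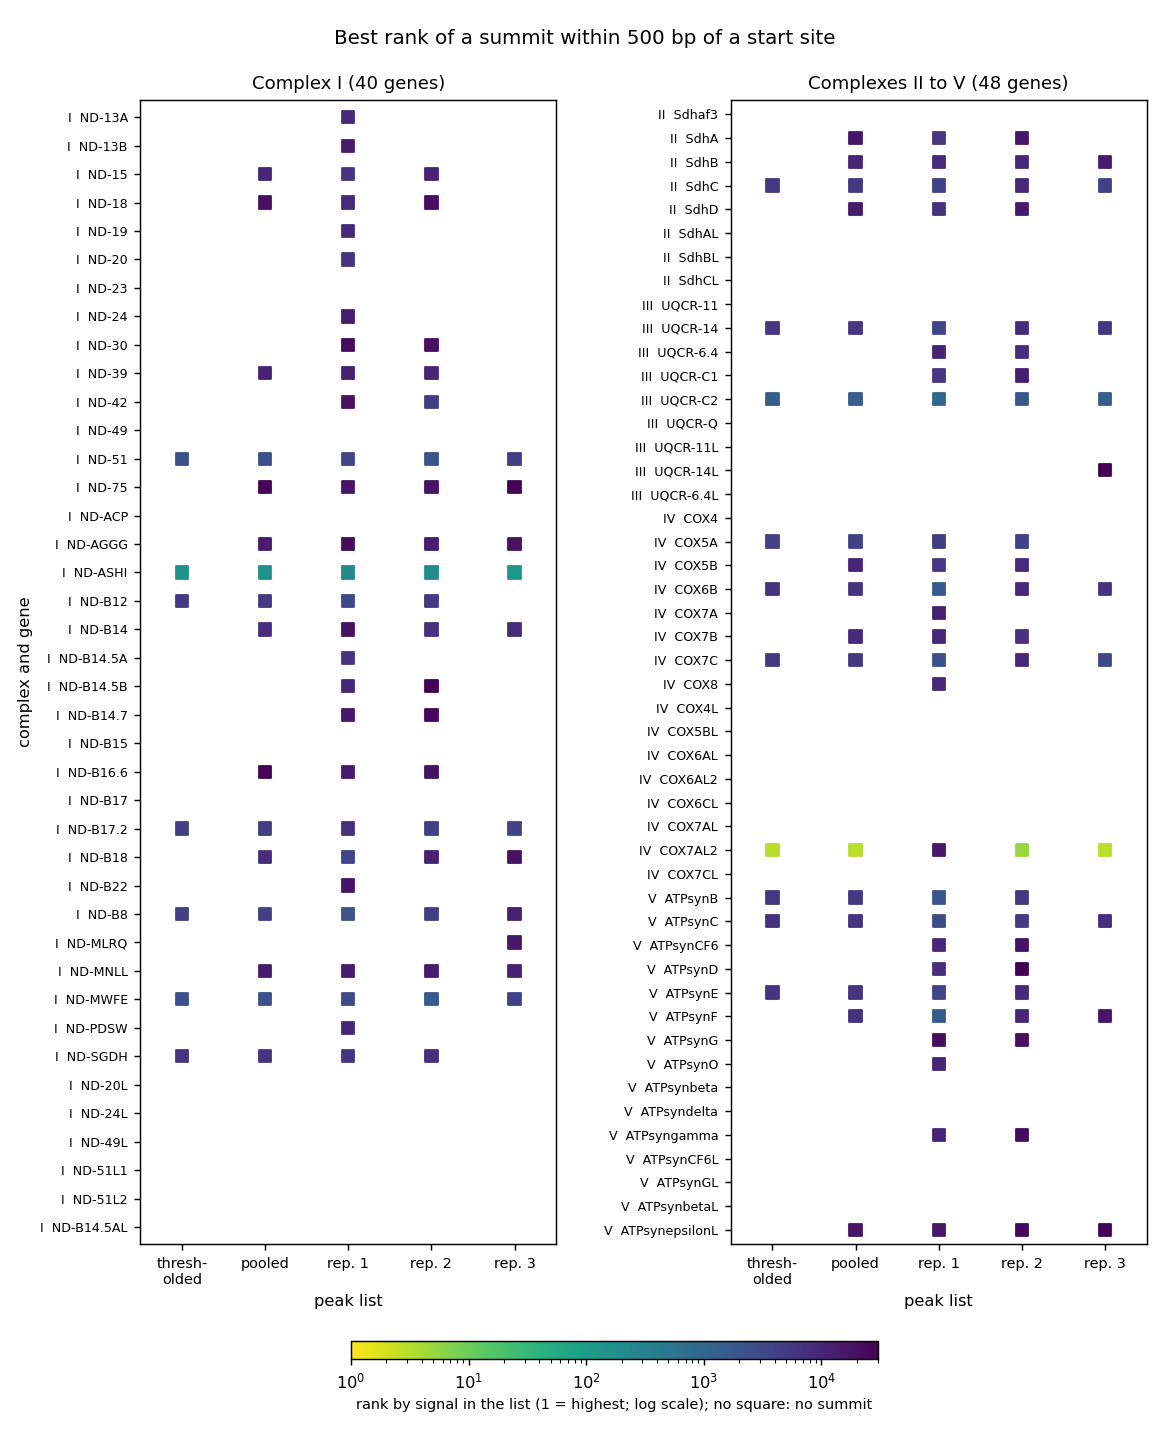
Best rank of a summit within 500 bp of a start site for all 88 genes (rows, ordered by complex, with complex I on the left) in 5 peak lists (columns). Colour gives the rank on a log scale, with light for high signal, and an empty place means no summit. COX7AL2 and ND-ASHI are the lightest rows, most core genes have squares for replicate 1, and 21 of 24 like paralogs have none.

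The 17 thresholded summits were mostly weak. The median best signal was 209, beside 308 over the 2953 bound genes, and 12 of 17 lay below that value. Their median distance from the start site was 81 bp, beside 113 bp, and 11 of 17 (64.7%) lay upstream, beside 71.2%. Of the 17, 11 shared their summit with another gene (64.7%, beside 42.5%), and 4 were found in the top of all 3 replicates (23.5%, beside 50.1%). In replicate 3, 7 of 17 had no summit within 100 bp in the whole list (41.2%, beside 19.0%), against 2 in replicate 1 (11.8%, beside 7.42%) and 0 in replicate 2 (0.0%, beside 3.42%). All 7 without a summit in replicate 3 (COX5A, ND-B12, ATPsynB, UQCR-14, ATPsynE, ND-SGDH and COX6B) had one in replicates 1 and 2.

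**Figure D4:**
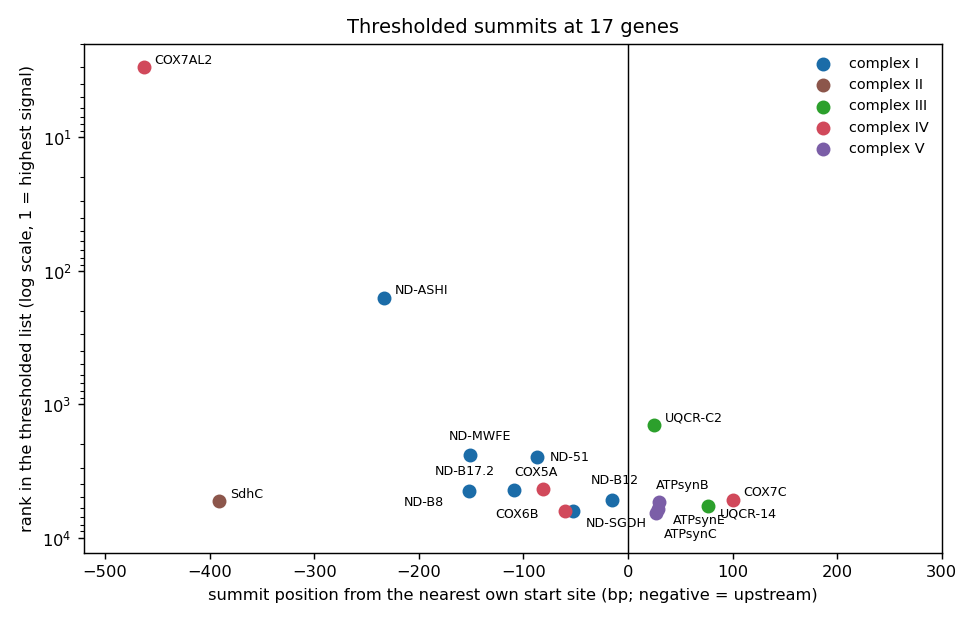
Position of the best thresholded summit from the nearest own start site (bp, horizontal axis) against its rank in the thresholded list (log scale, vertical axis) for 17 bound genes, coloured by complex. COX7AL2 and SdhC lie farthest upstream, at 463 and 391 bp, and 12 genes lie between ranks 4325 and 6549.

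Complex I had 7 bound genes of 40 (17.5%, exact interval 7.34 to 32.8%, beside 21.1% of all genes), all among its 34 core genes. The interval of each complex holds the share of all genes. ND-ASHI and ND-51 are described above. ND-MWFE, an accessory subunit of the membrane arm, had a signal of 356 and rank 2396 at 151 bp upstream. Its summit ranked 2927, 1533 and 10017 in replicates 1, 2 and 3, where the signals were 93.3, 210 and 41.2, and was nearer to TppII, the gene of a peptidase (70 bp). It was low in replicate 3, whose top held a different ND-MWFE summit 461 bp upstream, at rank 3871.

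Both ND-B17.2 and ND-B8 encode accessory subunits of complex I and share a summit with a neighbour whose start is nearer. The summit of ND-B17.2 had a signal of 238 and rank 4373 at 109 bp upstream, and lay 11 bp from the start of Arpc5, a subunit gene of the actin-nucleating Arp2/3 complex. It ranked 7266, 4150 and 3813 in replicates 1, 2 and 3, with signals of 50.5, 107 and 87.4. The rank in replicate 1 fell outside the top and the others inside. The summit of ND-B8 had a signal of 234 and rank 4489 at 152 bp upstream, and lay 21 bp from the start of Secp43. It ranked 2267, 4881 and 11481, with signals of 109, 94.4 and 36.7, and was lowest in replicate 3. ND-B12 and ND-SGDH, accessory subunits of the membrane arm, had signals of 207 (rank 5246, 15 bp upstream) and 178 (rank 6288, 53 bp upstream). ND-B12 ranked 3129 in replicate 1 and 5249 in replicate 2, with a signal of 89.6 in each. ND-SGDH, whose summit also lies 231 bp from the start of RhoGAP68F, ranked 6000 (signal 58.3) in replicate 1 and 7185 (signal 70.0) in replicate 2. Replicate 3 held neither summit.

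Among the unbound genes of complex I, ND-B18 and ND-B14 came nearest in the pooled list, at ranks 7704 and 7933. The catalytic and iron-sulfur subunits other than ND-51 were not bound: ND-75, whose nearest thresholded summit was 799 bp away, was in the pooled list at rank 26674, and ND-20, ND-24 and ND-30 were in replicate lists only. ND-23 and ND-49 were in no list, nor were the accessory subunit genes ND-B15 and ND-B17 or the acyl carrier gene ND-ACP. None of the 6 like paralogs of complex I, among them ND-51L1 and ND-51L2, had a summit in any list, whereas ND-51 had one in all 5.

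In complex II, all 4 core genes had a summit in the pooled list and in all regions of replicates 1 and 2, beside 41.3%, 51.5% and 46.1% of all genes. With 4 genes the exact interval runs from 39.8 to 100% in each. Only SdhC, one of the membrane anchors, was in the thresholded list (1 of 8 genes, 12.5%, interval 0.316 to 52.7%, beside 21.1%), with a signal of 204 and rank 5337. The summit lay 391 bp upstream of SdhC and 7 bp upstream of Tctp, which is transcribed in the opposite direction. It ranked 4130, 16188 and 4075 in replicates 1, 2 and 3, with signals of 75.4, 32.1 and 83.5, and was low in replicate 2, where another summit 276 bp upstream of SdhC ranked 9122. The pooled ranks of the others were 16819 for SdhA, the flavoprotein that binds succinate, 10147 for SdhB, the iron-sulfur subunit, and 14005 for SdhD, the other anchor. SdhB ranked 8906, 9179 and 13139 in the replicates. SdhA ranked 5769 and 16069, and SdhD 6528 and 14983, in replicates 1 and 2, and replicate 3 listed neither gene. The like paralogs SdhAL, SdhBL and SdhCL and the assembly factor gene Sdhaf3 were in no list.

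Complex III had 2 bound genes of 9 (22.2%, interval 2.81 to 60%, beside 21.1%). UQCR-C2 is described above. UQCR-14, a small subunit that does not carry electrons, had its summit 76 bp downstream of the start, with a signal of 189 and rank 5842. It ranked 3735 (signal 80.2) in replicate 1 and 7934 (signal 63.9) in replicate 2, and replicate 3 had no summit within 100 bp but a different one 203 bp downstream at rank 5973. UQCR-C1, the partner of UQCR-C2 in the complex, ranked 5901 in replicate 1 and 12598 in replicate 2 and was in no other list. UQCR-14L was listed in replicate 3 alone, at rank 29598, near the end of the list. UQCR-11 and UQCR-Q were in none.

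Complex IV had 4 bound genes of 16 (25.0%, interval 7.27 to 52.4%, beside 21.1%): COX7AL2 and 3 of 8 core genes. All 3 encode structural subunits around the catalytic core, which is itself encoded in mitochondrial DNA. COX5A had a signal of 240 and rank 4325 at 81 bp upstream, 98 bp from the start of glo, an RNA-binding protein gene. It ranked 4876 (signal 67.7) and 3990 (signal 110) in replicates 1 and 2, with no summit in replicate 3. COX7C had a signal of 209 and rank 5191 at 100 bp downstream, 166 bp downstream of the start of oys, a membrane acyltransferase gene on the opposite strand. Here replicate 1 lacked this summit but had another 145 bp upstream of the start, at rank 2513 (signal 102), and replicates 2 and 3 had it at ranks 9195 (signal 56.1) and 3163 (signal 98.5). COX6B had a signal of 177 and rank 6334 at 60 bp upstream. Its summit lay 36 bp from the shared start of CG33932 and Rpp20, the latter a ribonuclease P subunit gene, and 60 bp from that of CG18809. It ranked 1699 (signal 126) in replicate 1, 9491 (signal 54.6) in replicate 2, and was absent within 100 bp in replicate 3, where another summit within 500 bp of a COX6B start ranked 6338 (signal 59.9), inside the top.

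In the COX7A family a paralog, not the core gene, was bound, through a summit 463 bp from its start. With a window of 250 bp this paralog was not bound. COX7A itself had a summit in replicate 1 alone, at rank 11746, while its paralog COX7AL2 had rank 3 in the thresholded list, and COX7AL was in no list. For COX7C, SdhC and ND-51, the core gene was bound and the like paralogs COX7CL, SdhCL, ND-51L1 and ND-51L2 were in no list. COX4, another nuclear-encoded subunit gene, was in none, nor was its paralog COX4L.

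ATP synthase had 3 bound genes of 15 (20.0%, interval 4.33 to 48.1%, beside 21.1%), all with the summit just downstream of the start and all of low signal. ATPsynB, a subunit of the peripheral stalk, had a signal of 202 and rank 5389 at 30 bp, and ranked 2022 (signal 116) and 5876 (signal 82.2) in replicates 1 and 2. ATPsynE, a small membrane subunit, had a signal of 181 and rank 6137 at 29 bp, with the start of Afti 287 bp away, and ranked 3597 (signal 82.1) and 9360 (signal 55.3) in the same replicates. Replicate 3 had neither summit. ATPsynC, which forms the proton-carrying ring, had a signal of 172 and rank 6549 at 27 bp. Its matching summits ranked 18223 (signal 28.1) in replicate 2 and 8162 (signal 49.1) in replicate 3, with none in replicate 1. Within 500 bp of a start site, other ATPsynC summits were in the top of replicate 1 (rank 2680, signal 98.1) and of replicate 2 (rank 5076, signal 92.0). ATPsynF, a membrane subunit, came closest among all unbound genes, with pooled rank 6641, and ranked 1569 in replicate 1. The genes of the catalytic subunit, ATPsynbeta, and of the central stalk subunit ATPsyndelta were in no list. The rotor gene ATPsyngamma was listed at rank 10256 in replicate 1 and 21545 in replicate 2 only. Among the like paralogs, ATPsynepsilonL had a summit at pooled rank 17057 and at ranks 16007, 23810 and 27510 in replicates 1, 2 and 3. ATPsynCF6L, ATPsynGL and ATPsynbetaL were in no list.

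**Figure D5:**
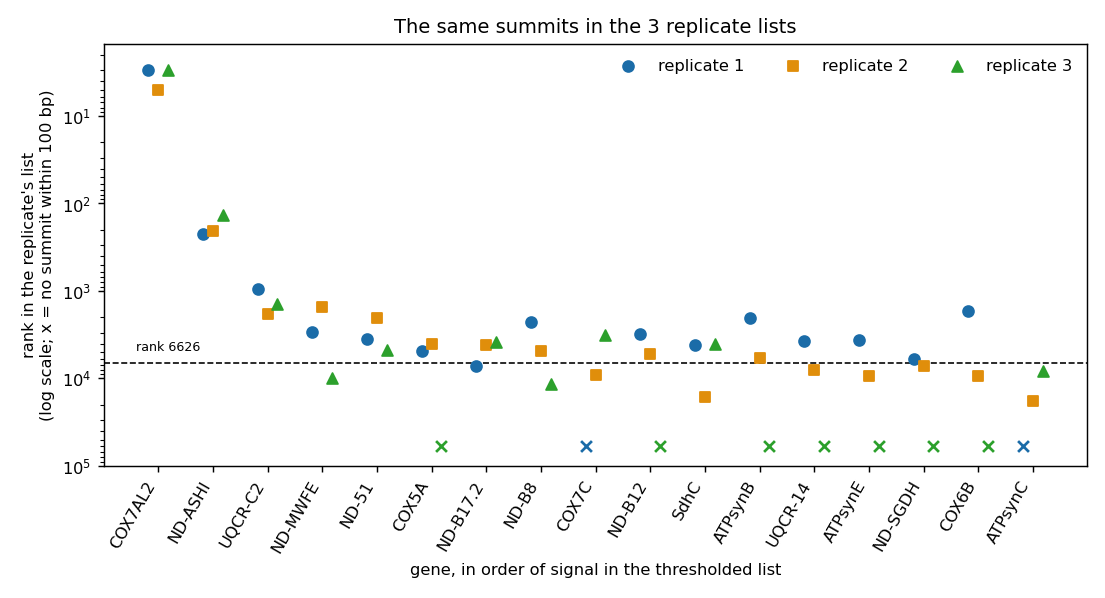
Rank of the summit within 100 bp of each thresholded summit in the 3 replicate lists (log scale, vertical axis), for 17 bound genes in order of thresholded signal. A cross marks a replicate with no such summit, and the dashed line is rank 6626. The leftmost genes keep similar ranks in all replicates, and 7 genes have a cross for replicate 3.

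Like paralogs and core genes also differed in features of the annotation. Of the core genes, 40 of 63 (63.5%) had a start of another gene on the opposite strand within 1000 bp upstream, beside 4 of 24 like paralogs (16.7%) and 36.2% of all genes. Among such divergent genes, 27.5% of core genes were bound, beside 31.0% of all, and among the others 21.7%, beside 15.6%. Several start sites were annotated for 50.8% of core genes, 12.5% of like paralogs and 26.5% of all genes, which widens the stretch searched. The median distance from a gene to its nearest thresholded summit was 4036 bp for core genes, 15175 bp for like paralogs and 6156 bp for all genes. The part of these features in the counts was not tested.

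For 5 of 17 bound genes, another start site lay nearer to the summit (ND-MWFE, ND-B17.2, ND-B8, SdhC and COX6B), which left 12 whose own start was the nearest. The genes farthest from their summit inside the 500 bp window were SdhC at 391 bp and COX7AL2 at 463 bp. Among the unbound genes, ND-75 had the nearest thresholded summit, at 799 bp.

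The 100 bases on either side of each summit were searched for 9 motifs on both strands, each counted on its own, overlaps allowed. The DRE (TATCGATA), the site of the factor Dref, was in 2 of 17 windows (11.8%, beside 4.96% of 2683 promoter summits). The NRG element, searched as TTACATAA, TTATGTAA, TTACGTAA or TTATATAA, was also in 2 (11.8%, beside 2.76%). GAGAG was in 3 (17.6%, beside 34.2%) and the Ets core (CCGGAA) in 2 (11.8%, beside 10.1%). Motif 1 (GGTCACACT), the E-box CACGTG and GCATGC, a part of the site of mammalian NRF-1, were in none (beside 3.76%, 2.72% and 3.21%). Ohler motif 6 was in 1 (5.88%, beside 0.708%), at COX5A, and Ohler motif 7 in 2 (11.8%, beside 7.27%). With 17 windows, each count rests on a few genes.

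The 4 windows with a DRE or an NRG element are shown, in dm6 on the strand of the gene, with the element in capitals. Stretches are shortened to hold at most 30 bases of annotated untranslated sequence. In the windows of SdhC and ATPsynE the DRE starts 72 and 74 bases downstream of the summit. In that of UQCR-14 the NRG element starts 35 bases downstream of it, and in that of ND-SGDH 33 bases upstream. The SdhC summit lay 391 bp from SdhC and 7 bp from the start of Tctp. By the promoter count that follows, SdhC and ATPsynE had no DRE and UQCR-14 no NRG element.
SdhC (chr3R:11210140-11210276, minus strand): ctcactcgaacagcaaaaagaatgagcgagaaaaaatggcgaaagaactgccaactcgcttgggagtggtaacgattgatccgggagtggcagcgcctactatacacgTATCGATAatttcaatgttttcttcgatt
ATPsynE (chr3R:14327039-14327068, plus strand): accaatacaacTATCGATAgccgcctgtca
UQCR-14 (chrX:16286388-16286417, plus strand): gacttctgattTTACGTAAaccatgtcgaa
ND-SGDH (chr3L:12138555-12138737, minus strand): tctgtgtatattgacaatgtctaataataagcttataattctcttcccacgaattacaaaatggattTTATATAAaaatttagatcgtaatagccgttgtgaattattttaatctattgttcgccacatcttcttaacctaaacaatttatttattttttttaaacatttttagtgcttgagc

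The promoters of the set, from 250 bases before to 50 bases from the most upstream start on, held these motifs in other shares. Motif 1 was in 14 of 63 core promoters (22.2%), 1 of 24 like paralogs (4.17%) and 6.04% of all genes, and in 4 of 8 core genes of complex IV. The DRE was in 9 core promoters (14.3%), 0 like paralogs and 9.36% of all genes. The NRG element was in 5 core promoters (7.94%, beside 5.18%), all in complex I, at ND-30, ND-42, ND-49, ND-MNLL and ND-SGDH. Ohler motifs 6 and 7 were in 9.52% and 17.5% of core promoters, beside 2.23% and 9.28%, and in 0 like paralogs. GAGAG ran the other way, in 15.9% of core promoters, 41.7% of like paralogs and 29.7% of all genes.

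Within the core genes, GAGAG was in 6 of 16 bound promoters (37.5%) and 4 of 47 unbound ones (8.51%), beside 29.7% of all genes. These promoters are those of the most upstream start, while a gene may be bound through any of its starts. Motif and summit can thus lie at different starts of a gene, and at the summits themselves GAGAG was in 3 of 17 windows (17.6%, beside 34.2%). Over all genes, 25.8% of those with it and 19.2% of those without it were bound. Motif 1 was in 3 of 16 bound (18.8%) and 11 of 47 unbound core promoters (23.4%), and the DRE in 1 of 16 (6.25%) and 8 of 47 (17.0%). Counted by motif, 21.4% of the 14 core genes with Motif 1 and 26.5% of the 49 without it were bound. Over all genes, these shares were 32.0% and 20.4%. For the DRE, 11.1% of the 9 core genes with it and 27.8% of the 54 without it were bound. The shares over all genes were 27.4% and 20.5%. The summit windows had a median GC content of 41.3%, beside 43.8% over all promoter summits.

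Other genes of the same pathways were counted from 5 lists, in which 58 of 63 names matched a gene and 17 of 58 were bound (29.3%, beside 21.1% of all genes). Signals in the thresholded list stand in parentheses. Subunits and electron carriers under other symbols had 3 of 9 bound: the cytochrome c genes Cyt-c-d (908) and Cyt-c-p (171), and blw (334), the alpha subunit of ATP synthase. Assembly and copper delivery had 3 of 10, the complex I assembly factor genes CIA30 (1646, rank 123) and sicily (661) and the complex III factor gene Ttc19 (299). Genes of mitochondrial DNA maintenance and transcription had 4 of 15, led by TFAM (822), which packages mitochondrial DNA, PolG1 (481), its polymerase, and mtSSB (299), its single-strand binding protein. The citric acid cycle had 4 of 17, led by Fum1, which shares the summit of ND-ASHI, then the isocitrate dehydrogenase gene Idh3g (902) and the aconitase gene mAcon1 (357). Carriers had 3 of 7: colt (845), which carries acylcarnitine, the phosphate carrier gene Mpcp2 (299) and the pyruvate carrier gene Mpc1 (288). In the replicate tops, 27, 16 and 15 of the 58 genes were bound. Of all 13968 genes, 3623, 2973 and 2531 were (25.9%, 21.3% and 18.1%), which fell in the same order. As shares, the 58 genes stood above all genes in each replicate. Of the genes named from these lists, Cyt-c-p, Mpcp2 and Mpc1 were not in the top of every replicate, and the others were.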

How the data were processed

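Peak lists of 3 biological replicates of 1 group were used, with depth unknown. The authors deposited a signal value per peak, the score of a peak caller that is not given in the sources used here, nor is the reproducibility threshold. The deposited −log10 q-values shared a ceiling, 4.19 throughout the thresholded list, and were not used. Each replicate list was derived from its own alignment and 1 shared control alignment on dm6, per the labels and deposited notes. All 6626 thresholded peaks were those of highest signal in the pooled list.

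Genes and start sites (19630) came from Ensembl release 115, and sequences from the RefSeq genome. Summits were counted from 1. Python 3.11.15, numpy 2.4.6, pandas 2.3.3, scipy 1.17.1 and matplotlib 3.10.9 were used. Intervals are exact (Clopper-Pearson) 95% binomial. With 1 group, no test was made, and shares are set beside those of all genes. Scripts were tested on simulated data.

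The genes and lists were chosen with earlier results of these data known. By rule, each gene bound in the thresholded list is named, with the 3 highest unbound genes of the pooled list, paralogs of named genes, the genes that share a summit, and up to 3 genes per pathway list. Other genes named were chosen after their values were seen. Alternatives were the promoter window, the number of regions, the nearest start site, the motif window and each replicate left out.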

Additional observations from a re-analysis of the deposited data

How the results depend on the processing

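The thresholded count of 17 bound genes (beside 21.1% of all genes) was 15 with a window of 250 bp (17.8%), 18 with 1000 bp (24.9%) and 12 with each summit given to its nearest start site (17.1%). It was 5 among the 3313 peaks of highest signal (beside 11.9% of all genes) and 4 with only the peaks found in all 3 replicate tops (beside 10.7%). These alternatives use fewer peaks by construction. The pooled count of 33 was 17 when as many regions were used as the thresholded list holds, which is fixed by construction because those regions are the thresholded list. The mean share over replicates of 17.8% was 45.1% with all deposited regions (beside 44.7%), and ranged from 13.1 to 21.0% with each replicate left out. The share of all genes ranged from 19.7 to 23.6%, and both were lowest without replicate 1. The count of 4 genes in the top of all 3 replicates (4.55% of the 88, beside 12.7% of all genes) was 2 with 250 bp (beside 10%). It was 7 with 1000 bp (beside 15.8%) and 20 with all regions (22.7% of the 88, beside 28.5% of all genes). With each replicate left out it was 6 to 9 (beside 14.3 to 17.3% of all genes), since only 2 replicates had to share the gene. With the nearest start site, 4 of 7 bound genes were left in complex I, 0 of 1 in complex II and 3 of 4 in complex IV. Complexes III and V kept theirs. With 250 bp, 0 of 1 was left in complex II and 3 of 4 in complex IV, and the other complexes kept theirs. Of the 24 like paralogs, 0 were bound with 250 bp. With a narrower window at the summit, the DRE was in 0 of 17 windows, beside 2.68% of 2683 promoter summits. The NRG element was in 2 (11.8%, beside 1.42%). With 17 windows, a count of 0 cannot tell the DRE share from that of the promoter summits. No paired analysis was possible because there was 1 group. Depth is unknown, so the absence of a summit is not absence of binding.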
